A study of Mus musculus with 9 samples.

Results

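The genes of Wnt ligands, receptors and secreted modulators, with some genes that act inside the receiving cell, were taken here as a family of 47. They were chosen by symbol out of 21938 mouse protein-coding genes. The family holds 19 Wnt ligands, 10 Frizzled receptors, the coreceptors Lrp5 and Lrp6, 7 secreted inhibitors, 4 R-spondins, and Axin2 with the 4 Lef/Tcf factors. The 47 symbols were all found in the annotation. To describe the chromatin of these genes in the oviduct, the 2 enhancer-associated histone marks H3K27ac and H3K4me1 were examined by ChIC-Seq, in which an antibody brings protein A-MNase to chromatin and the released fragments are sequenced. Primary oviductal muscle cells came from WT mice on D2 of pregnancy, aged 8 to 12 weeks, and 50000 cells were used per library. There were 3 samples each for H3K27ac, H3K4me1 and the IgG control, and the only comparison was between the marks, as every sample had the same genotype and day.

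Wnt ligands are secreted, lipid-modified proteins that act on cells near their source. They bind Frizzled receptors together with Lrp5 or Lrp6, which stabilizes beta-catenin so that Lef/Tcf factors can activate targets such as Axin2, or they act through beta-catenin-independent routes. Secreted Frizzled-related proteins (Sfrp) bind Wnts, Dickkopf proteins (Dkk) bind Lrp5 and Lrp6, and R-spondins raise the amount of receptor at the cell surface. In the female tract the family is known for patterning the embryonic duct and for signals between stroma, muscle and epithelium. H3K27ac is found at active promoters and enhancers, and H3K4me1 at enhancers and at the flanks of promoters. Both are marks on chromatin and not measures of transcript.

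Each replicate list held 93684 to 152889 peaks covering 91.0 to 145 Mb, called from 40551842 to 78891920 fragments against 3110985 to 3713369 IgG fragments. H3K27ac replicate 1 had the most peaks and the largest covered length. The cells had been dissociated, filtered and plated for some hours, without a sort. Both marks were present in at least 2 of 3 replicates at the promoters of 4 of 8 smooth muscle markers, 6 of 6 fibroblast markers, 2 of 8 epithelial, 2 of 6 endothelial and 0 of 6 leukocyte markers. Of all protein-coding genes 42.2% had both, so the smooth muscle and endothelial counts lay near that share. Acta2, Des and Smtn had a promoter peak in all 6 replicate lists, whereas Myh11, a defining smooth muscle gene, had none for H3K27ac and 1 for H3K4me1. Epcam, a defining epithelial gene, had none, whereas Pax8 and Ovgp1 had 2 lists of each mark. Krt8 had H3K27ac in 1 list and H3K4me1 in 3. Cdh1, Krt18 and Krt7 had H3K27ac alone, in 1 list, and Foxj1 had H3K4me1 alone, in 1. Of the 6 leukocyte genes Ptprc and Cd68 had H3K27ac in all 3 lists and H3K4me1 in none, while the other 4 had no promoter peak. Mean H3K27ac coverage of the locus ranged from 9.56% at Thy1 to 59.7% at Col3a1 among the fibroblast markers, and from 1.51% at Myh11 to 18.1% at Acta2 among the smooth muscle markers. It ranged from 1.35% at Foxj1 to 27.9% at Krt8 among the epithelial markers. The ranges were 1.01% at Vwf to 11.0% at Emcn for endothelial and 0.365% at Csf1r to 24.7% at Cd68 for leukocyte markers. In a mixture of cells a smaller marked fraction and less mark per cell cannot be told apart, and which cells carried the marks described here was not tested.

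To show what the promoters of marked and unmarked members look like, 6 promoters were read from the RefSeq promoter table on GRCm38.p6. They are the bases upstream of the start that lie outside annotated exons, written 5′ to 3′ on the strand of the gene, with each CpG dinucleotide in capitals. Wnt16, Sfrp2, Fzd4 and Axin2 had H3K27ac at the promoter in all 3 replicates, and Wnt3 and Wnt9b had neither mark in any list.
Wnt16 promoter, chr6:22287977-22288226, plus strand: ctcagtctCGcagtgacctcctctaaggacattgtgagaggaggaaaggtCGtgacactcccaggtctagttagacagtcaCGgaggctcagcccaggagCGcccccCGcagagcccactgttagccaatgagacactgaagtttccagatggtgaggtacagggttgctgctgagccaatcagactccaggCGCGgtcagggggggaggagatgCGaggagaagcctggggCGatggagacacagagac
Sfrp2 promoter, chr3:83766071-83766320, plus strand: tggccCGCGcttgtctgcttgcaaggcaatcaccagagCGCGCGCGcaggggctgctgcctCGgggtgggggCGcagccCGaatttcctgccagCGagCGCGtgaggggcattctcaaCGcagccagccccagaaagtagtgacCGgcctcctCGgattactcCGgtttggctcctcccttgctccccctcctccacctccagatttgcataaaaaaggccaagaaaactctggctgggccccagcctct
Fzd4 promoter, chr7:89404223-89404354, plus strand: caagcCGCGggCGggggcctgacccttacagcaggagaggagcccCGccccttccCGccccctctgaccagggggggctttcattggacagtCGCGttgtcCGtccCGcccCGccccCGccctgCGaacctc
Axin2 promoter, chr11:108920099-108920348, plus strand: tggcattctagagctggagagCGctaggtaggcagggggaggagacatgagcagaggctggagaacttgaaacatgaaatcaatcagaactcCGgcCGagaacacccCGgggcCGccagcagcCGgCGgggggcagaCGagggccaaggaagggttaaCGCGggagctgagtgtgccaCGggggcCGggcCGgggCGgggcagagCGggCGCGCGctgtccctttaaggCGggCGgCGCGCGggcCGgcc
Wnt3 promoter, chr11:103773925-103774149, plus strand: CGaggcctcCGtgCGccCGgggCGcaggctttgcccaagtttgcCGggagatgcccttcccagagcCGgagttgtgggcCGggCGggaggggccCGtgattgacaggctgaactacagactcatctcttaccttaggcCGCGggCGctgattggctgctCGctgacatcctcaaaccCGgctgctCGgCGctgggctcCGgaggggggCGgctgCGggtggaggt
Wnt9b promoter, chr11:103749822-103750071, minus strand: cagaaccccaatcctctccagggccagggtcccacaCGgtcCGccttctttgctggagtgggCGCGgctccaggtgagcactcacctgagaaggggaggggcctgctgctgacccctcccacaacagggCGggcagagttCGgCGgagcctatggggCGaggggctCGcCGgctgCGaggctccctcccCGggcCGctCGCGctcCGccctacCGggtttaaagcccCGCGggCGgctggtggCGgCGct
The Wnt16 stretch held 9 CpGs in 250 bases, with 0.420 of the CpGs that its base composition would give, and was the poorest of the 6. The Axin2 stretch held 24 in 250 bases, at a ratio of 0.860. The unmarked stretches of Wnt3 and Wnt9b held 20 CpGs in 225 bases and 22 in 250 bases, at 0.761 and 0.679, which lie between Sfrp2 at 0.640 and Axin2.

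A promoter was taken as 1 kb on either side of any annotated start, and a gene as marked when a peak reached it in at least 2 of the 3 replicate lists of a mark. H3K4me1 replicates 1 and 2 were called against the same IgG library, so their agreement is not that of separately controlled calls. By this rule Frizzled promoters were marked more often than ligand promoters by both marks. For H3K4me1 the order turned with peaks of at least 1.3 on the −log10 p scale. These left H3K4me1 in at least 2 lists at Wnt2, Wnt9a and Wnt11, and among Frizzled genes at Fzd3 alone. H3K27ac was present at 8 of 10 Frizzled genes, 5 of 19 ligands and 3 of 7 secreted inhibitors, where 55% of all protein-coding genes were marked. H3K4me1 was present at 8 Frizzled genes, 8 ligands and 4 secreted inhibitors, against 46.9% of all genes. Both marks were found at 7 Frizzled genes, 5 ligands and 3 inhibitors, against 42.2% of all genes. Over the 47 members, 23 (48.9%) had H3K27ac, 26 (55.3%) had H3K4me1 and 20 (42.6%) had both, so by this rule the family as a whole lay near the background and the contrast was among its classes. By several stricter rules the family lay below it, though not by all for H3K4me1. With peaks above each list's median fold, H3K4me1 was at 19 of 47, above the 38.7% of all genes. With peaks of at least 1.3 on the −log10 p scale it was at 9 of 47, above the 15.6%. A promoter peak in all 6 lists was found at 6 of 47 (12.8%), against 27.8% of all genes, and both marks within 250 bp of a start at 9, against 27.6%. Without H3K4me1 replicate 1, which requires a peak in both remaining lists, H3K4me1 was at 12 members, against 34.5% of all genes, and both marks at 12, against 32.6%. Without H3K4me1 replicate 2 these were 14, against 35.8%, and 12, against 33.5%, so that the H3K4me1 share of the members turned from above to below the background. Without H3K4me1 replicate 3 it stayed above, with H3K4me1 at 22 of 47, against 40%, and both marks at 18, against 36.4%. H3K4me1 without H3K27ac was found at 6 members, against 4.69% of all genes, and neither mark at 18, against 40.3%. These shares are descriptions of genes and were not tested, since genes are not replicates of a condition.

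In every single list a larger share of Frizzled than of ligand promoters was marked. H3K27ac peaks were found at 3, 7 and 5 ligand promoters in replicates 1, 2 and 3, and at 7, 9 and 8 Frizzled promoters, so that the ligand shares, 15.8% to 36.8%, did not overlap the Frizzled shares, 70% to 90%. H3K4me1 peaks were found at 8, 7 and 4 ligand promoters and at 7, 8 and 6 Frizzled promoters. Inhibitors had 3, 2 and 4 promoters for H3K27ac and 4, 3 and 3 for H3K4me1. Their H3K27ac share lay between those of the other classes in replicates 1 and 3 and below both, at 28.6%, in replicate 2. The lists pooled over replicates had H3K27ac at 5 ligands, 8 Frizzled genes and 3 inhibitors, and H3K4me1 at 10, 8 and 5. Over the family this was 25 of 47 members with pooled H3K27ac, where 57.1% of all genes had it, and 32 with pooled H3K4me1, where 58.2% had it. The Frizzled genes had a median of 1 annotated start, the ligands 2 and all genes 3.

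**Figure D1:**
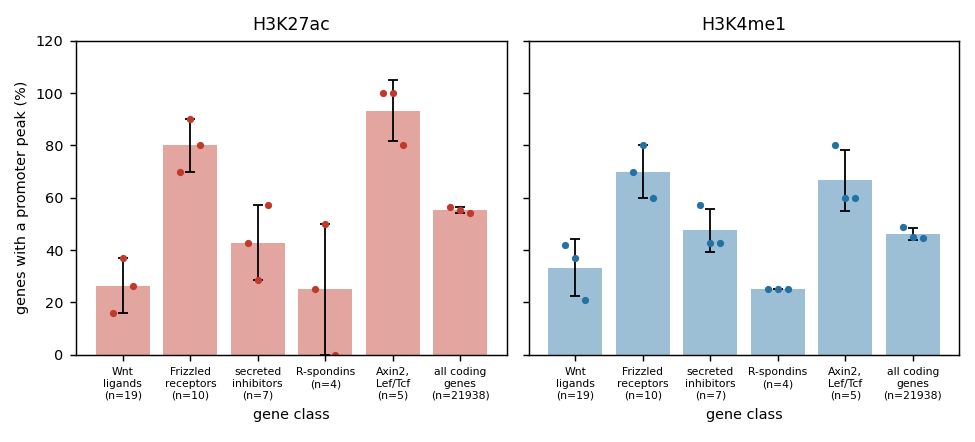
Share of genes with a promoter peak (%) in each replicate list (points), with the mean (bar) and SD (error bar, n = 3 lists), for H3K27ac and H3K4me1 in 5 classes of members and in all 21938 protein-coding genes. For H3K27ac the ligand points (15.8% to 36.8%) lie below all Frizzled points (70% to 90%), with all coding genes between 54.1% and 56.6%.

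Of the 19 ligands, 5 had both marks in at least 2 replicates each, 3 had H3K4me1 only and 11 had neither (42.2%, 4.69% and 40.3% of all genes). Wnt16, a ligand known from bone and joint, was the only one of the 19 with a promoter peak in all 6 replicate lists, and 27.8% of all genes had this. In contrast, Wnt1, Wnt3, Wnt3a, Wnt4, Wnt7a, Wnt8a, Wnt8b, Wnt9b, Wnt10a and Wnt10b lacked a promoter peak in all 6, which is 10 of 19 against 31.4% of all genes. Of these, Wnt10a and Wnt10b had a pooled H3K4me1 promoter peak. Wnt5a had H3K27ac in 3 and H3K4me1 in 2 replicates. Wnt2 and Wnt11 each had H3K27ac in 2 and H3K4me1 in 3, and Wnt9a had 2 of each. Wnt2b and Wnt5b had H3K27ac in 1 and H3K4me1 in 2. Wnt6 had H3K4me1 alone, in 2, and Wnt7b had H3K27ac alone, in 1.

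**Figure D2:**
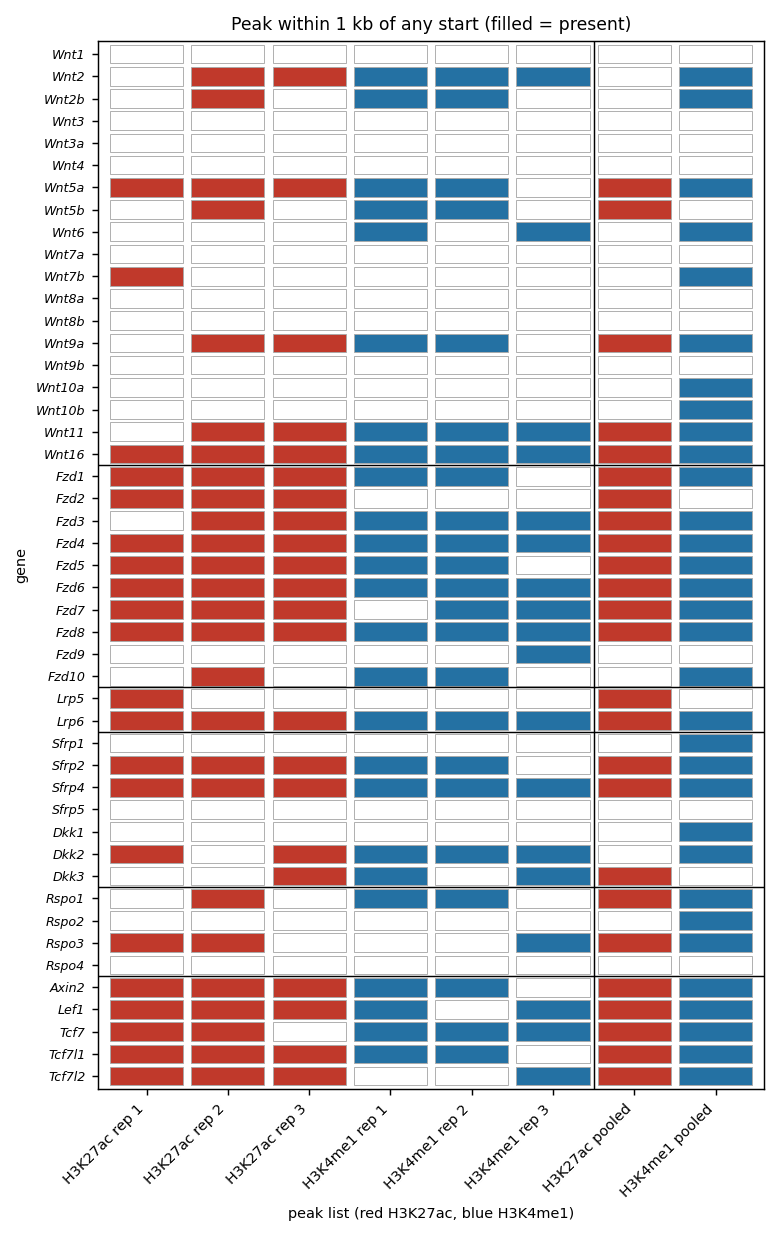
Presence (filled) or absence (open) of a peak within 1 kb of any start for each of the 47 genes (rows, grouped by class from ligands at the top to Axin2 and the Lef/Tcf factors at the bottom) in the 6 replicate and 2 pooled lists (columns, H3K27ac red, H3K4me1 blue). The rows of 10 ligands are open in all 6 replicate columns, whereas no Frizzled row is.

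The Frizzled receptors were marked almost throughout. Fzd4, Fzd6 and Fzd8 had a promoter peak in all 6 lists, which is 3 of 10, near the 27.8% of all genes. Fzd1, Fzd5 and Fzd7 had H3K27ac in 3 and H3K4me1 in 2 lists, and Fzd3 the converse, with 2 and 3. Fzd2 had H3K27ac in 3 lists and H3K4me1 in 0, and its pooled H3K4me1 list had no promoter peak either. Fzd10 had H3K27ac in 1 and H3K4me1 in 2 lists, and Fzd9 only H3K4me1 in 1. The start of Fzd4 lies within 1 kb of that of Tmem135, so its promoter peaks cannot be told apart from those of its neighbour. Promoters of Wnt5a, Wnt7a, Wnt7b, Fzd6, Fzd10, Rspo1, Lef1 and Tcf7l1 lie likewise within 1 kb of the start of another annotated gene.

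The coreceptors differed from each other. Lrp6 had a promoter peak in all 6 lists, and Lrp5 had H3K27ac in 1 and H3K4me1 in 0. Among the secreted inhibitors, Sfrp4 was marked in all 6 lists, Sfrp2 by H3K27ac in 3 and H3K4me1 in 2, Dkk2 in 2 and 3, and Dkk3, a divergent Dickkopf relative, in 1 and 2. Sfrp1, Sfrp5 and Dkk1, the best known antagonist of Lrp6, had none in the replicate lists, and Sfrp1 and Dkk1 had a pooled H3K4me1 promoter peak. Of the R-spondins, Rspo1 had H3K27ac in 1 and H3K4me1 in 2 lists, Rspo3 had 2 and 1, and Rspo2 and Rspo4 had none, with a pooled H3K4me1 peak at Rspo2.

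Most genes at the receiving end of the pathway carried both marks. Axin2, a feedback inhibitor and common target of beta-catenin, Lef1 and Tcf7l1 had H3K27ac in 3 and H3K4me1 in 2 lists. Tcf7l2 had 3 and 1, and Tcf7 had 2 and 3. All 5 thus had H3K27ac in at least 2 replicates, against 55% of all genes, and 4 had both marks, against 42.2%. At Tcf7l1 the marks lay at different starts. Its H3K4me1 peaks of replicates 1 and 2 were at an internal start, near chr6:72671126, where H3K27ac was found in replicate 2 only. H3K27ac lay at the gene start, chr6:72789254, in all 3. The class had a median of 5 starts, against 3 for all genes. All 5 were CpG-rich, and 83.3% of all CpG-rich genes had H3K27ac. None of the 5 had a peak in all 6 lists, against 27.8%, and 1 had H3K4me1 in all 3, against 31.7%.

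The fold enrichment of a promoter peak, which is the ratio of coverage to local background in the authors' calls, was placed among all peaks of its own list, taking the strongest promoter peak of a gene in each list. Wnt5a, a ligand of the beta-catenin-independent branch, had folds of 2.13 to 2.30 for H3K27ac, at the 96.3 to 98.6 percentiles of the 3 lists. Fzd2, at 2.05 to 2.44, lay at the 94.6 to 99.1 percentiles, and Fzd1 at the 95.5 to 96.7. The strongest Axin2 peaks lay at the 90.6 to 99.2 percentiles and those of Tcf7l2 at the 95.4 to 96.9. Peaks at Wnt16 were less steep, at the 87.7 to 90.7 percentiles for H3K27ac and the 55.3 to 72.3 for H3K4me1. At the lower end, the Dkk2 peaks lay at the 19.3 to 55.1 percentiles for H3K27ac, and the 1 H3K4me1 peak of Rspo3 at the 8.02.

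Peaks were then summed over the locus, which is the gene body with 25 kb on either side. The median ligand locus had 3.14% ± 0.940 of its length under H3K27ac and 5.02% ± 1.82 under H3K4me1 (SD, n = 3 lists). The corresponding values were 6.07% ± 0.230 and 7.77% ± 0.676 for Frizzled loci and 4.59% ± 3.82 and 5.56% ± 1.51 for inhibitor loci. All protein-coding genes had medians of 4.55% ± 0.703 and 3.87% ± 0.426. For H3K27ac the ligand medians of single lists, 2.22% to 4.10%, lay below the Frizzled medians, 5.80% to 6.23%. The inhibitor medians, 1.77% to 8.94%, spanned both. The H3K4me1 medians of the ligands, 3.02% to 6.59%, also lay below those of the Frizzled genes, 7.07% to 8.42%. This H3K4me1 order turned with a flank of 50 kb, at 6.96% for ligands and 6.001% for Frizzled genes, and with peaks of at least 1.3 on the −log10 p scale, at 1.38% and 0.413%, and was 3.65% and 3.59% with peaks above each list's median fold.

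**Figure D3:**
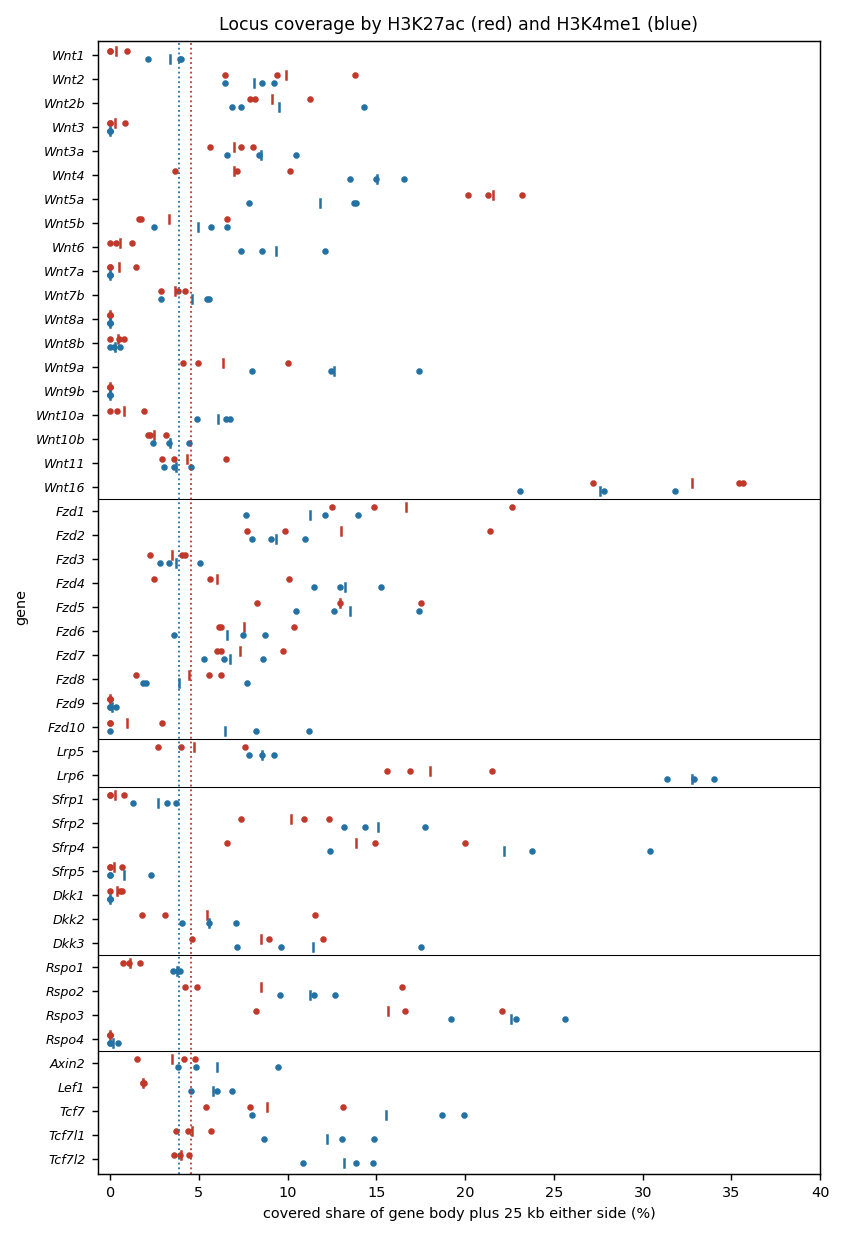
Share of each locus (gene body with 25 kb on either side, %) covered by H3K27ac (red) and H3K4me1 (blue) in each replicate list (points) with the mean (vertical tick, n = 3), for the 47 genes grouped by class. Dotted lines are the mean medians of all coding genes (4.55% and 3.87%); Wnt16 and Lrp6 lie farthest to the right, and Wnt8a and Wnt9b lie at 0 for both marks.

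Wnt16 was the most covered ligand locus. H3K27ac lay over 35.7%, 35.4% and 27.2% of it in replicates 1, 2 and 3, and H3K4me1 over 27.8%, 31.8% and 23.1%. These values placed it at the 98.2 to 99.1 percentiles of all genes for H3K27ac and the 95.6 to 98.3 for H3K4me1. The 2 marks overlapped in range there. Over the gene body alone, 83.6% ± 7.44 was under H3K27ac and 75.3% ± 16.0 under H3K4me1. In the pooled list a single H3K27ac peak of 9734 bp ran from just before the start to 9416 bp after it. Stretches of at least 100 bp covered in all 6 replicate lists were found in 17 of the 47 loci, and in 40.4% of all gene loci. The Wnt16 locus held 6, with 4923 bp in total, of which 3 lay in the gene beyond the promoter, 2 lay upstream and 1 at the promoter.

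Wnt5a showed another form. H3K27ac lay over 23.2%, 21.3% and 20.2% of its locus and H3K4me1 over 13.9%, 13.7% and 7.82%. Thus 15.7 ± 1.12 kb were under H3K27ac and 8.58 ± 2.51 kb under H3K4me1, and no H3K4me1 list reached an H3K27ac list (exact two-sided permutation p = 0.1, the smallest that 3 against 3 lists allow; Benjamini-Hochberg adjusted p = 0.342 over all genes, the smallest reached by any gene). In each H3K27ac list 1 peak of 9371 to 9495 bp covered the 6 annotated starts. The H3K4me1 promoter peaks of replicates 1 and 2 were short, 756 and 400 bp, and covered none of these starts. The pooled H3K4me1 list had a peak of 2693 bp that covered none and a peak of 7727 bp that covered 3. Of the 47, Wnt5a was the only locus with more H3K27ac than H3K4me1 in every replicate list, where 17.3% of all genes had this. The count was 5 with a flank of 0 or 10 kb, 3 after scaling to the genome share and 3 without H3K27ac replicate 2 or 3. At Wnt5a the pooled lists turned the direction, with 15483 bp under H3K27ac and 20246 bp under H3K4me1.

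**Figure D4:**
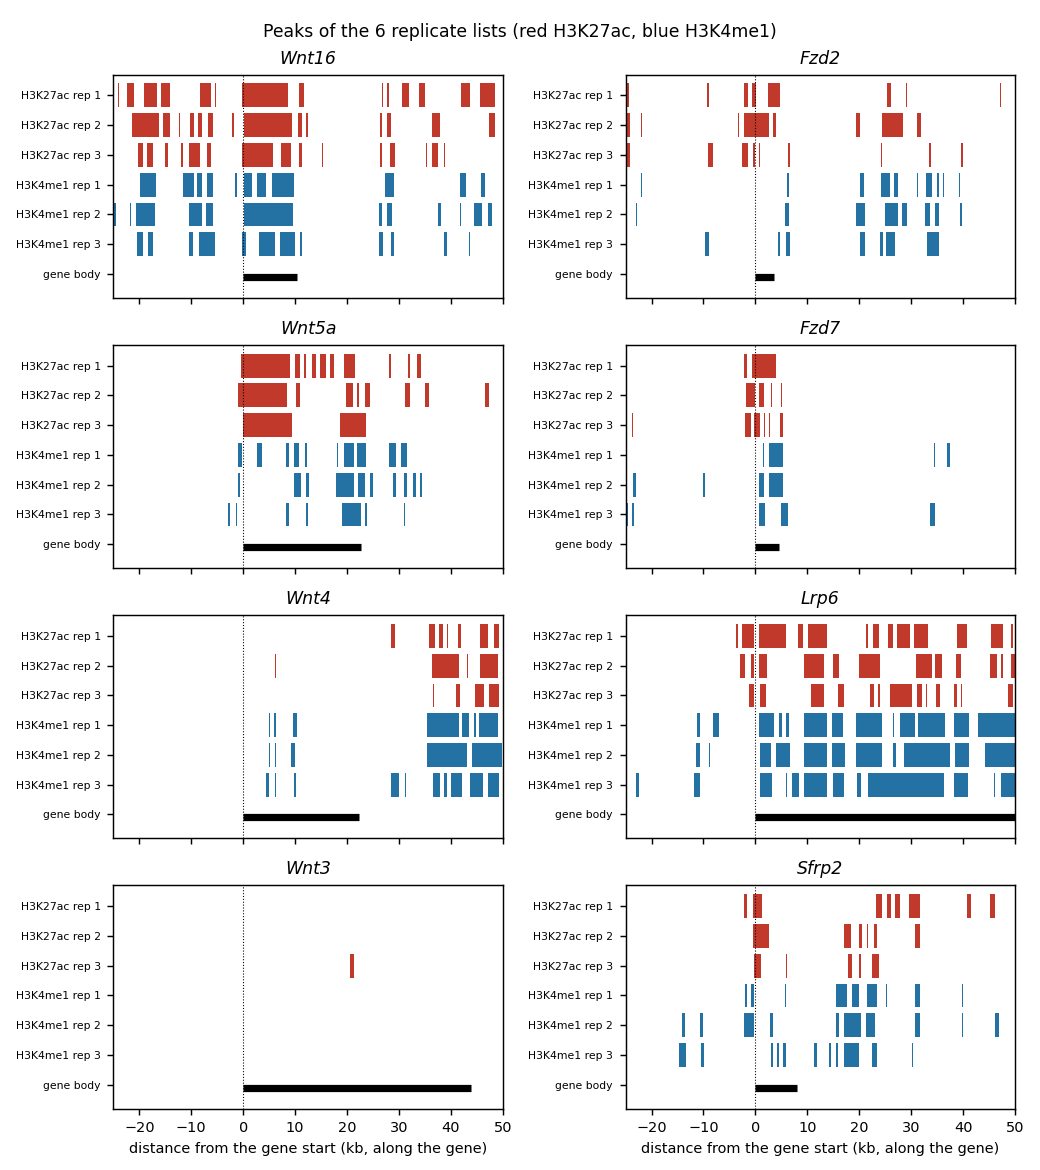
Peaks (boxes) of the 3 H3K27ac (red) and 3 H3K4me1 (blue) replicate lists from 25 kb before to 50 kb after the gene start, in kb along the direction of the gene, for 8 members, with the gene body as a black bar. Wnt16 is covered by both marks, Wnt5a and Fzd2 carry H3K27ac at the start with little or no H3K4me1, most peaks near Wnt4 lie beyond its end, and the start of Wnt3 is empty in all 6 lists.

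The converse, more H3K4me1 than H3K27ac in every list, held for 13 of the 47 loci (27.7%), where 12% of all genes had this. They were Wnt1, Wnt4, Wnt6, Wnt10a, Fzd4, Lrp5, Lrp6, Sfrp1, Sfrp2, Rspo1, Lef1, Tcf7l1 and Tcf7l2, and the exact permutation test gave each of them 0.1, or 0.342 after Benjamini-Hochberg adjustment. Members had a median of 1 other coding gene in the locus and all genes 2. Among genes with at most 1, the share with more H3K4me1 was 9 of 38 members (23.7%) against 16.2% of all genes, and that with more H3K27ac was 1 of 38 against 7.92%. The remaining 33 members had overlapping values.

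Lrp6 had the widest H3K4me1. It covered 31.4%, 32.9% and 34.0% of the locus in replicates 1, 2 and 3, and H3K27ac covered 21.5%, 16.9% and 15.6%. This amounted to 55.9 ± 2.30 kb against 30.7 ± 5.30 kb. The locus held 9 stretches covered in all 6 lists, 5724 bp in total and more than any other member, all within the gene. Its relative Lrp5 had 8.53% ± 0.716 under H3K4me1 and 4.74% ± 2.53 under H3K27ac, and its single stretch covered in all 6 lists lay at the promoter of a neighbour, 1810055G02Rik.

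Of the 4 Lef/Tcf genes, 3 likewise had more H3K4me1. Tcf7l2, the main Tcf of many adult tissues, had 31.9 ± 4.93 kb under H3K4me1 and 9.62 ± 1.03 kb under H3K27ac. As a share of the locus this was 14.8%, 13.9% and 10.9% against 3.59%, 4.44% and 3.91%. Tcf7l1 had 12.2% ± 3.18 against 4.59% ± 1.00 and Lef1 5.80% ± 1.18 against 1.87% ± 0.00842. Tcf7 had the highest coverage of this class, 15.5% ± 6.56 against 8.81% ± 3.93, with overlap between the marks. Its longest pooled peak of each mark overlapped the neighbour Skp1a, and over the gene body its H3K4me1, 9.67% ± 4.97, was below that of Tcf7l2, 16.0% ± 3.01. Axin2 had 6.03% ± 3.01 under H3K4me1 and 3.48% ± 1.73 under H3K27ac, also with overlap.

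Wnt6 and Wnt10a, which share 43807 bp of their loci, had H3K4me1 with little H3K27ac. H3K4me1 covered 8.54%, 7.37% and 12.1% of the Wnt6 locus, and H3K27ac 1.24%, 0.323% and 0%. At Wnt10a the values were 6.76%, 4.87% and 6.54% against 0.381%, 1.91% and 0%. Since 69.1% of the Wnt6 locus is also that of Wnt10a, these are not separate observations. Wnt1 and Wnt10b (38294 bp), Wnt3a and Wnt9a (33825 bp), and Wnt3 and Wnt9b (25672 bp) overlap in the same manner. At Wnt1, H3K4me1 covered 4.00%, 3.94% and 2.15% and H3K27ac 0.919%, 0% and 0%. At Wnt10b these were 4.43%, 3.30% and 2.40% against 3.11%, 2.10% and 2.22%. Over the Wnt10b gene body H3K27ac was 0% in all 3 lists.

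At several ligand loci the covered sequence lay in or near other genes. Wnt4, required for the formation of the female duct, had 15.02% ± 1.52 under H3K4me1 and 6.96% ± 3.24 under H3K27ac, yet over its gene body H3K27ac covered only 0.249% ± 0.431 and H3K4me1 5.22% ± 0.332. Both of its stretches covered in all 6 lists lay beyond its end, 1 of them inside Cdc42. At Wnt3a, with 6.99% ± 1.26 under H3K27ac over the locus and 0% in all 3 lists over the gene body, both such stretches lay inside Arf1. The Wnt5b stretch lay inside Wnt5b, at the promoter of Fbxl14, a gene that lies within Wnt5b. Wnt7b and Wnt9a had 1 stretch each, outside any coding gene.

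A pair of these stretches is shown, 1 from the gene body of Wnt16 and 1 downstream of Wnt4, the shortest of each locus. They were read from the GRCm38.p6 genome and are given on the plus strand.
Wnt16 intronic region, chr6:22293756-22294052, plus strand: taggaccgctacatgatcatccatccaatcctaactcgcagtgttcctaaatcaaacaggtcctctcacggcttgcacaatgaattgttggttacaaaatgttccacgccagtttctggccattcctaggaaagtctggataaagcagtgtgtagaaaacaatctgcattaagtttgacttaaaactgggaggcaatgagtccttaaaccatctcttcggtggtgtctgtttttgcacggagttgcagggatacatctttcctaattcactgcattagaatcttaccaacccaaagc
Wnt4 downstream region, chr4:137318810-137318991, plus strand: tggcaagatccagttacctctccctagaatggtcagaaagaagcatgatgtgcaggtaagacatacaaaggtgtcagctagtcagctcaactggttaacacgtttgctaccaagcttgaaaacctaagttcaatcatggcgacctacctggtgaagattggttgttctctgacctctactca
The Wnt16 stretch begins 5529 bp after the gene start and lies in an intron. The Wnt4 stretch begins 41321 bp after the gene start and overlaps no coding gene. The Lef/Tcf motif was searched for as CTTTGAT and CTTTGAA on both strands (ATCAAAG and TTCAAAG), and capitals would mark it, but neither of these stretches, the shortest of their loci, held it. Of the 37 stretches of the members, which reached 2491 bp, 7 held it, at Wnt16, Lrp6, Dkk3, Rspo2 and Rspo3, and the share over such stretches of all genes was not computed. In the RefSeq table, which spans 250 bases before to 50 after a start, 32 of the 47 members matched with 40 promoters, of which 3 (7.5%) held the motif, at Wnt5b, Wnt11 and Dkk1. Among all 32851 promoters listed there, 8.65% held it.

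Among the other ligands the spread was wide. Wnt2, known from mesenchyme, had 9.88% ± 3.70 of its locus under H3K27ac and 8.08% ± 1.42 under H3K4me1, and its close relative Wnt2b had 9.11% ± 1.88 and 9.51% ± 4.15. Wnt9a had 6.36% ± 3.20 and 12.6% ± 4.68, and Wnt3a 8.49% ± 1.93 for H3K4me1. Wnt11 had 4.33% ± 1.92 and 3.72% ± 0.786, Wnt7b 3.63% ± 0.716 and 4.62% ± 1.55, and Wnt5b 3.30% ± 2.83 and 4.92% ± 2.17. These 7 loci had overlapping values of the marks. At the low end, Wnt8a and Wnt9b had 0 bp under either mark in every replicate list. Wnt3 and Wnt7a had 0 bp under H3K4me1, and H3K27ac in 1 list only, at 0.811% and 1.47%. Wnt8b had 0.465%, 0.758% and 0% under H3K27ac and 0.535%, 0% and 0.236% under H3K4me1.

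Within the Frizzled class, Fzd1 had the highest mean H3K27ac coverage, at 22.6%, 14.9% and 12.5% of the locus, and Fzd5 the highest mean H3K4me1, at 17.4%, 12.6% and 10.5%. Both led only in replicate 1. For H3K27ac, Fzd2 was highest in replicate 2 (21.4%) and Fzd5 in replicate 3 (17.5%), and in the pooled list Fzd2 had 28.7% and Fzd1 14.3%. For H3K4me1, Fzd1 was highest in replicate 2 (14.0%) and Fzd4 in replicate 3 (15.3%). At Fzd1 and Fzd5 the lists of the 2 marks overlapped. The Fzd5 mean, 13.5% ± 3.54, was close to that of Fzd4, 13.2% ± 1.91. Over the Fzd5 gene body H3K4me1 was 0% in 2 lists and 7.23% in replicate 3, and the longest pooled H3K4me1 peak of the locus overlapped the neighbour Ccnyl1. Over the Fzd2 gene body H3K27ac covered 8.30% to 75.8% and H3K4me1 0% in all 3 lists, although over its locus, which includes H3K4me1 peaks downstream, the values were 13.0% ± 7.37 and 9.35% ± 1.51. Fzd4 had 12.9%, 11.5% and 15.3% under H3K4me1 and 2.46%, 5.62% and 10.04% under H3K27ac and was the 1 Frizzled locus whose lists did not overlap. Fzd6 had 6.12%, 10.3% and 6.21% under H3K27ac and 8.70%, 7.48% and 3.61% under H3K4me1, and Fzd8 6.22%, 1.46% and 5.58% against 1.82%, 2.03% and 7.70%. Fzd3 and Fzd7 had means of 3.49% and 7.32% for H3K27ac and 3.72% and 6.77% for H3K4me1. Fzd9 was lowest for both, with 0% in every H3K27ac list and 0.112% ± 0.194 for H3K4me1. Fzd10 had H3K4me1 at 11.2% and 8.21% in 2 lists and 0% in the third, and H3K27ac in 1 list, at 2.89%.

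Sfrp4 and Sfrp2 led the secreted inhibitors. Of its locus of 59891 bp, Sfrp4 had 8929, 11977 and 3927 bp under H3K27ac and 14246, 18222 and 7411 bp under H3K4me1 in replicates 1, 2 and 3. As shares these were the highest of the class for both marks, at means of 13.8% ± 6.79 and 22.2% ± 9.13, with overlap. Sfrp2 had 12.3%, 10.9% and 7.35% against 13.2%, 17.7% and 14.4%, without overlap. Dkk3 followed with 8.51% ± 3.70 and 11.4% ± 5.42, and Dkk2 with 5.46% ± 5.31 and 5.56% ± 1.51. Sfrp1 had H3K27ac in 1 list, at 0.763%, and 3.68%, 1.28% and 3.18% under H3K4me1. Sfrp5 was lowest for H3K27ac, with 0.641% in replicate 2 and 0% in the others, and had H3K4me1 in the same replicate only, at 2.27%. Dkk1 had 0.645%, 0% and 0.520% under H3K27ac and 0% under H3K4me1 in all 3 lists.

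The R-spondins differed between promoter and locus. Rspo3 had 15.6% ± 6.98 of its locus under H3K27ac and 22.6% ± 3.24 under H3K4me1, with 4 stretches covered in all 6 lists within the gene, although its promoter had H3K27ac in only 2 lists, at the 64.2 and 73.9 percentiles, and H3K4me1 in 1. Rspo2, with no promoter peak in any replicate list, had 16.4%, 4.18% and 4.91% under H3K27ac and 11.5%, 9.55% and 12.7% under H3K4me1. Rspo1 had 1.14% ± 0.468 and 3.75% ± 0.194, and Rspo4 0% in every H3K27ac list and 0.138% ± 0.239.

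Whether the low ligand counts went with CpG content was then examined, since CpG-rich promoters are commonly marked. A promoter was called CpG-rich when the 1 kb around any start had a CpG ratio of observed over expected of at least 0.6 and at least 50% G and C. By this measure 14 of 19 ligands and 10 of 10 Frizzled genes were CpG-rich. H3K27ac was present at 4 of the 14 CpG-rich ligands (28.6%) and at 8 of the 10 Frizzled genes, against 83.3% of 11236 CpG-rich genes overall. H3K4me1 was present at 7 of the 14 ligands, against 68.4%. No promoter peak in any of the 6 lists was seen at 6 of the 14 ligands (42.9%), against 7.3% of CpG-rich genes, and at 4 of the 5 CpG-poor ligands, against 56.8% of CpG-poor genes. Over all members, 20 of the 37 CpG-rich ones (54.1%) had H3K27ac and 9 (24.3%) had no peak in any list. Of the 10 CpG-poor members 3 (30.0%) had H3K27ac, near the 25.3% of all CpG-poor genes. Among these were Wnt16 and Sfrp4, at ratios of 0.480 and 0.526.

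**Figure D5:**
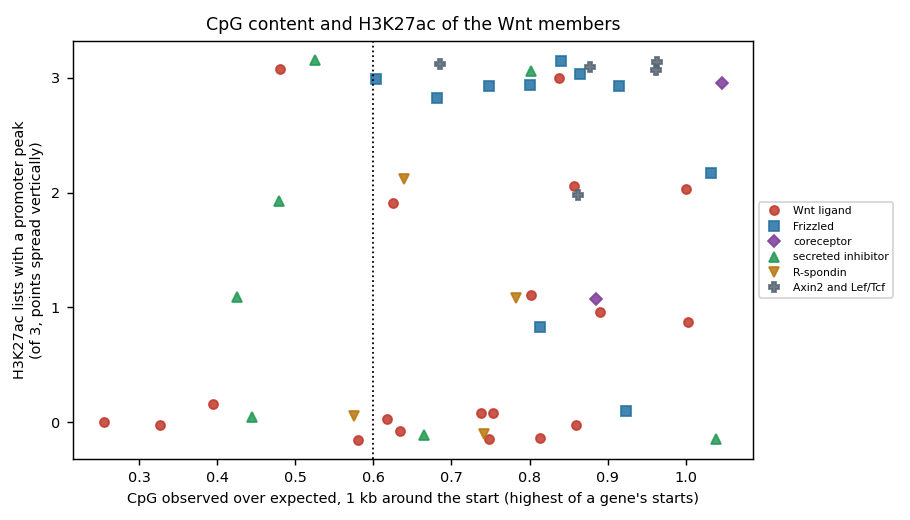
Number of H3K27ac replicate lists with a promoter peak (0 to 3, points spread vertically to be seen) against the CpG observed over expected ratio in 1 kb around the start, taking the start with the highest ratio, for the 47 genes by class. The dotted line is at 0.6; to its right, ligands are found from 0 to 3 lists while 8 of 10 Frizzled genes are at 2 or 3.

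Other genes of the pathway were counted as a list of 51. Of these, 35 had H3K27ac at the promoter, against 55% of all genes, 34 had H3K4me1, against 46.9%, and 31 had both, against 42.2%. A peak in all 6 lists was found at 23, against 27.8%, and in none at 5, against 31.4%. Wls, which carries Wnts to the cell surface, had 37.9% ± 6.73 of its locus under H3K27ac and 42.9% ± 2.13 under H3K4me1, and Porcn, which acylates Wnts, had H3K27ac in 3 and H3K4me1 in 2 lists. Among 8 other receptors, 6 had both marks, among them Ror2 and Ryk, which bind Wnts outside the beta-catenin branch, and Lgr4, an R-spondin receptor. Of 6 other secreted inhibitors only Frzb and Wif1 had both marks, and of 7 planar polarity genes only Prickle1 and Prickle2. Of 14 intracellular and 9 nuclear components, 10 and 6 had both.

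Values at these promoters depended on how strong a peak had to be. With peaks of at least 1.3 on the −log10 p scale, 12 of the 47 members kept H3K27ac in at least 2 replicates, against 41.5% of all genes, and 9 kept H3K4me1, against 15.6%. Under this filter 0 of 19 ligands and 0 of 10 Frizzled genes had both marks, against 13.6% of all genes. H3K4me1 was kept at the ligands Wnt2, Wnt9a and Wnt11 and, of the Frizzled genes, at Fzd3 alone.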

How the data were processed

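The data were peak lists from ChIC-Seq, 1 per replicate and 1 pooled list for each of H3K27ac and H3K4me1. The IgG samples entered only as controls of those calls. Per the labels, the tools included cutadapt, Bowtie2 and MACS2, with GRCm38.p5. Per the file headers, the authors called broad, paired-end peaks with MACS 2.2.7.1 at p cutoffs of 0.05 and 0.1, scaling the larger library down. IgG replicate 1 was the control of H3K27ac replicate 1, IgG replicate 3 that of replicate 3 of each mark, and IgG replicate 2 that of the other 3. The deposited pileup is a coverage signal. Fold enrichment, as deposited, is the ratio of coverage in a peak to background, and the p-value was deposited as −log10. The IgG depth, 3110985 to 3713369 fragments, limits how firmly a single peak is called, and no depth per gene is given, so no interval was computed.

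Genes and starts (93513 starts of 21938 genes) were those of GENCODE mouse release 21. Covered bp were the union of a list's peaks. Marks were compared per gene over the 20 assignments of 6 lists by an exact two-sided permutation test, with Benjamini-Hochberg adjustment over all genes. Nothing in the labels says that replicates came from separate animals or cultures, so p-values measure the spread between these samples. Lists called against the same IgG library are not independent, while the test treats all 6 as exchangeable. Every member was reported by class. Locus values per list were given for most members marked in all or none of the 6 lists and for the most and least covered of each class, and means for the others. Members and lists were chosen with earlier results of these data known. Alternatives covered the window, the flank, peak strength, the number of replicates, scaling, shared IgG and each replicate left out. The overlap and permutation computations were tested on simulated data. Python 3.11.15, numpy 2.4.6 and pandas 2.3.3 were used.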

Additional observations from a re-analysis of the deposited data

How the results depend on the processing

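Of 199 values of 15 results under alternatives, 74 moved by more than 1.5 times (counts) or 1 SD (medians), including medians divided by the genome share, whose unit differs. Counts of both marks depended on the window and on peak strength. Both marks were found at 20 members, 5 ligands, 7 Frizzled genes and 3 inhibitors. These counts stand against 42.2% of all genes. Within 250 bp of a start they were 9, 2, 4 and 1 (27.6% of all genes), and with at least 500 bp of the window covered 7, 2 and 3 for the first 3 (28%). With peaks in all 3 replicates they were 6, 1, 3 and 1 (27.8%), and with peaks of at least 1.3 on the −log10 p scale 3, 0, 0 and 1 (13.6%). H3K4me1 was at 26 members, and at 14, 9, 11 and 9 under these alternatives, in the same order, against 46.9% of all genes and then 31.7%, 32%, 31.7% and 15.6%. H3K27ac was at 23, and at 12 under the p filter (55% and 41.5% of all genes). CpG-rich ligands with H3K27ac were 4, and 3 of 9 (33.3%, against 86.5% of all such genes) at a CpG ratio of at least 0.75 and 55% G and C, thresholds chosen after seeing the data.

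More H3K27ac in every list was seen at 1 member (17.3% of all genes), and at 5 with a flank of 0 or 10 kb (11.2% and 15.8%), at 3 with 50 kb (18.4%), the p filter (26.1%), peaks above each list's median fold (20.6%) or scaling to the genome share (23.9%), at 4 in pairs of lists with the same IgG (27.9%), and at 2 in the pooled lists (25.5%), Fzd2 and Fzd5 and not Wnt5a. More H3K4me1 was seen at 13 (12% of all genes), and at 8 with the p filter (5.99%), 22 in pairs with the same IgG (25.6%) and 40 in the pooled lists (55.8%). After scaling to the genome share the split was 3 to 10 members, against 23.9% and 7.57% of all genes.

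The median H3K27ac coverage of ligand loci, 3.14%, became 0% with a flank of 0 kb, 0.293% with 10 kb, 0.464% with the p filter and 0.781 times the genome share. For H3K4me1, 5.02% became 2.59%, 2.87% and 6.96% with flanks of 0, 10 and 50 kb, 1.38% with the p filter, 8.90% in the pooled list and 1.01 times the genome share. The Frizzled H3K27ac median, 6.07%, became 10.5%, 8.19% and 4.86% with these flanks, 0.530% with the p filter, 4.87% above the median fold, 7.59% pooled and 1.52 times the genome share. For H3K4me1, 7.77% became 8.65% and 6.001% with flanks of 0 and 50 kb, 0.413% with the p filter, 3.59% above the median fold (ligands 3.65%), 12.4% pooled and 1.58 times the genome share. The inhibitor H3K27ac median, 4.59%, became 0% with the p filter and 0.152% pooled. For H3K4me1, 5.56% became 0.751% with the p filter, 2.62% above the median fold, 8.19% pooled and 1.12 times the genome share. The causes were not tested.

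With 1 replicate left out, both remaining lists of that mark had to hold a peak. Both marks then ranged from 12 to 18 members, 2 to 5 ligands, 4 to 7 Frizzled genes and 2 to 3 inhibitors, H3K27ac from 17 to 23 and H3K4me1 from 12 to 26. H3K4me1 was at 12 members without H3K4me1 replicate 1 (34.5% of all genes) and 14 without replicate 2 (35.8%), and both marks at 12 when either was left out (32.6% and 33.5%). Without H3K4me1 replicate 3, H3K4me1 was at 22 (40%) and both marks at 18 (36.4%). Ligands with both marks were 2 without H3K27ac replicate 2 or 3, and 3 without H3K4me1 replicate 1 or 2. Frizzled genes with both were 4 without H3K4me1 replicate 2. More H3K27ac ranged from 1 to 3 members, with 3 without H3K27ac replicate 2 or 3 and 2 without H3K4me1 replicate 1 or 2, and more H3K4me1 from 13 to 18. Medians ranged from 2.67% to 3.61% and 4.24% to 6.03% for ligands, 5.99% to 6.198% and 7.44% to 8.12% for Frizzled genes and 2.42% to 6.01% and 4.80% to 6.31% for inhibitors (H3K27ac, then H3K4me1).

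The samples of the 2 marks share a number, and some of their lists share an IgG control. Deviations of same-numbered lists correlated at -0.0808, 0.335 and 0.493, so the numbers were not taken to pair them. Not every list correlated best with its own number, as H3K27ac replicate 2 did so with H3K4me1 replicate 1, at 0.374. Pairs called against the same IgG library were H3K27ac replicate 2 with H3K4me1 replicates 1 and 2, at 0.374 and 0.335, and replicate 3 of each mark, at 0.493. All other pairs lay between -0.508 and 0.0733. Whether the shared control gave these values was not tested. With the replicate number as a block, 3 members had more H3K27ac in every pair, against 26.4% of all genes, and 18 had more H3K4me1, against 19.1%.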
